A study of Homo sapiens with 9 samples.

Results

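Messenger RNA was counted for 10 genes of epidermal growth factor (EGF) receptor signalling in H69 cells, an immortalized line of human bile duct epithelial cells (cholangiocytes), which is labelled wild type. The 10 genes were chosen by name, with earlier results of these data known. They are 3 receptors (EGFR, ERBB2 and ERBB3), 4 ligands (AREG, EREG, HBEGF and TGFA) and 3 negative feedback genes (DUSP6, SPRY2 and SPRY4). All 10 were found among the 61541 genes of the count table. H69 cells were seeded at 100000 cells in 12-well plates, grown for 48 h, and then kept for 48 h with treatment, with fresh medium and treatment at 24 h. The 3 groups of 3 libraries each received 10 µl of the vehicle DMSO (Ctrl), 10 µM of acetazolamide, a carbonic anhydrase inhibitor (Acetazolamide), or 0.25 µg/cm2 of recombinant human Laminin511-E8, the integrin-binding fragment of a basement membrane protein (Laminin511-E8). The labels give the DMSO in the Ctrl group as a correction for the vehicle of the other groups. All libraries came from the same cell line, so the differences below are between cultures of H69 cells and not between people. The composition of the growth medium, including any added EGF, was not analysed here.

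EGFR, ERBB2 and ERBB3 are receptor tyrosine kinases that pair at the cell surface. EGFR binds the ligands, ERBB2 has no known ligand of its own, and ERBB3 has a weak kinase and binds neuregulins. The ligands are made as membrane-anchored precursors that ADAM proteases release, and binding switches on the RAS-ERK and PI3K-AKT cascades. DUSP6 is a phosphatase that removes phosphate from ERK, and the Sprouty proteins SPRY2 and SPRY4 dampen signalling from receptor tyrosine kinases to RAS-ERK. Transcription of DUSP6, SPRY2 and SPRY4 rises with ERK activity in many cells, which is why their transcripts are often read beside those of the receptors. In the biliary tree, this receptor family is known for its part in cholangiocyte growth and repair.

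AREG and EREG are neighbours on chromosome 4, and their promoters are shown beside those of EGFR and DUSP6 because these 4 genes span the levels and the spread described below. AREG lies at chr4:74445134-74455009 and EREG at chr4:74365143-74388751, both on the plus strand of GRCh38, with 56382 bp and 0 other protein-coding genes between them. Each line gives the 250 bases before the transcription start from the RefSeq promoter table (GRCh38.p14), 5′ to 3′ on the strand of the gene. Capitals mark 4 motifs that were searched on both strands: the TATA box (TATAAA), the cyclic AMP response element (TGACGTCA), the GC box (GGGCGG) and a core of ETS factor sites (CCGGAA). The windows are chr4:74444886-74445135 (plus) for AREG, chr4:74364895-74365144 (plus) for EREG, chr7:55018767-55019016 (plus) for the first of 2 listed EGFR starts and chr12:89352502-89352751 (minus) for DUSP6.
AREG: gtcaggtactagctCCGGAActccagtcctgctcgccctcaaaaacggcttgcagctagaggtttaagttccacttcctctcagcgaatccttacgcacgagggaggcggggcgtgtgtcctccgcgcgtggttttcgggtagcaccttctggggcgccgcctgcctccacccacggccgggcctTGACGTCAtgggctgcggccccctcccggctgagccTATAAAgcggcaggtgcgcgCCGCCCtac
EREG: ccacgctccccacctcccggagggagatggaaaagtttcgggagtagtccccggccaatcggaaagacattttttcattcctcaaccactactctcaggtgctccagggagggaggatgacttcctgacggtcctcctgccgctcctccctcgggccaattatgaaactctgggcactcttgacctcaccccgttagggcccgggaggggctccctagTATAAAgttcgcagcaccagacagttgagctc
EGFR: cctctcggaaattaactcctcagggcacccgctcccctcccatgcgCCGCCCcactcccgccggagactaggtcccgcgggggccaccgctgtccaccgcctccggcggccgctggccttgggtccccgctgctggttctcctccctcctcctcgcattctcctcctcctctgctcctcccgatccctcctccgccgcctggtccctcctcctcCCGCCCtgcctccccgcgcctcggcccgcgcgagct
DUSP6: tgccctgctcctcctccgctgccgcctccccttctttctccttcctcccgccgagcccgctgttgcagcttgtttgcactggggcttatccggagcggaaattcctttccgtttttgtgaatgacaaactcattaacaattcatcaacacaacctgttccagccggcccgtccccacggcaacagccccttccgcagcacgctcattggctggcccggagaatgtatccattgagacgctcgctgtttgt
The windows of AREG and EREG each held a TATA box on the strand of the gene, 29 to 24 bases before the start in AREG and 32 to 27 in EREG. The AREG window also held the cyclic AMP response element, 65 to 58 bases before the start, with 1 GC box and 1 ETS core. The EGFR window of the first start held 2 GC boxes and no TATAAA. The window of the second EGFR start, not shown, held TATAAA at 146 to 141 and at 36 to 31 bases before it. None of the 4 motifs was found in the DUSP6 window, which lies inside the annotated span of the gene (chr12:89347232-89353271). Of 35116 RefSeq windows of the same length, 10.7% held TATAAA, 1.65% held TGACGTCA, 42.6% held GGGCGG and 14.5% held CCGGAA. These matches describe letters only, and no binding was measured.

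The 9 libraries held between 12529867 and 39518899 counts, and mitochondrial genes took 9.43% to 16.2% of them. Of 6 cholangiocyte markers, 4 (KRT7, KRT19, EPCAM and SOX9) had at least 10 counts in every library, while CFTR had at most 2 counts. The 5 hepatocyte markers summed to at most 0.244 CPM (counts per 1000000 counts of the library) and the 4 leukocyte markers to at most 0.0947 CPM. Among the mesenchymal markers, COL1A1 and PDGFRB were detected and COL3A1 and LUM were at 0, with summed levels of 46.1 to 54.7 CPM in Ctrl, 39.4 to 73.0 in Acetazolamide and 41.3 to 62.5 in Laminin511-E8. The part of these transcripts in the results was not tested, and in bulk samples fewer cells of a type and less RNA per cell cannot be told apart.

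Per length of transcript, the ligand AREG and the receptor EGFR stood far above the other 8 genes in the vehicle-treated Ctrl cells. Levels are compared between genes as TPM, the count divided by the summed length of a gene's exons and scaled to a sum of 1000000 in every library. AREG, encoding amphiregulin, reached 439 ± 43.2 TPM in Ctrl (mean ± SD, n = 3), rank 158 among 13650 genes that had 10 counts or more in each Ctrl library. EGFR reached 256 ± 42.7 TPM, rank 339. ERBB2 followed with 28.9 ± 7.60 TPM, then TGFA with 19.7 ± 3.90, EREG with 14.6 ± 2.27, ERBB3 with 12.5 ± 2.45 and SPRY2 with 10.5 ± 1.74, around the median of 15.8 TPM over those ranked genes. At the low end, HBEGF had 2.05 ± 0.032 TPM, SPRY4 1.59 ± 0.749 and DUSP6 1.07 ± 0.372, the last in the lowest 5.05% of the ranked genes.

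**Figure D1:**
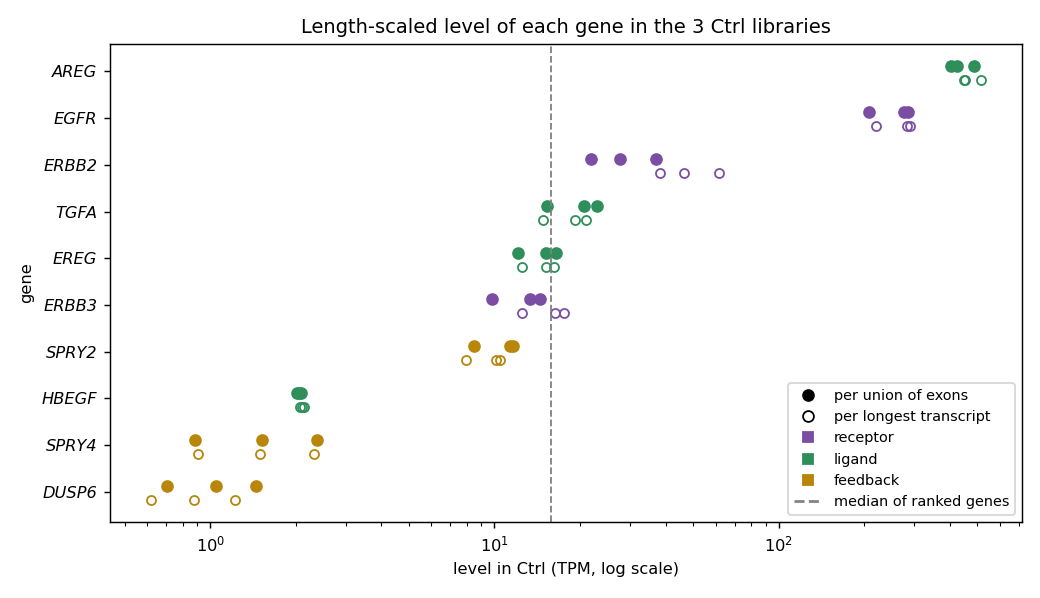
Length-scaled level of the 10 genes in the 3 Ctrl libraries, in TPM on a log axis, per union of exons (filled) and per longest transcript (open), coloured by role, with the median of the ranked genes (15.8 TPM) as a dashed line. AREG and EGFR lie to the right of the other genes, and HBEGF, SPRY4 and DUSP6 lie at the left end.

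The Ctrl ranges were apart at 3 steps of this order. Those of AREG and EGFR did not overlap, nor did those of EGFR and ERBB2 or those of SPRY2 and HBEGF. Within a library, AREG exceeded EGFR per length in 9 of 9 libraries, by 0.79 ± 0.17 on the log2 TPM scale in Ctrl (SD, n = 3). The other 6 pairs of neighbours had overlapping Ctrl ranges. Within a library, however, ERBB2 exceeded TGFA and SPRY4 exceeded DUSP6 in 9 of 9 libraries under both lengths, by 0.54 ± 0.14 and 0.53 ± 0.58 in Ctrl on the log2 TPM scale. EREG exceeded ERBB3 in 6 of 9 libraries per union of exons but in 3 of 9 per longest transcript, and HBEGF exceeded SPRY4 in 6 of 9 under both lengths, so these pairs have no settled order. ERBB2 rose to 48.8 ± 11.8 TPM when scaled by its longest transcript, since its annotated exons sum to 10321 bases and its longest transcript has 4930.

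AREG supplied nearly all of the ligand transcripts. It made up 92.2% ± 0.74 of the summed TPM of the 7 EGFR ligands in Ctrl (SD, n = 3), and 91.6% to 93.9% over the 9 libraries. TGFA, encoding transforming growth factor alpha, held 4.11% ± 0.50 in Ctrl, EREG (epiregulin) 3.06% ± 0.25 and HBEGF (heparin-binding EGF-like growth factor) 0.43% ± 0.04. Of the 3 ligands outside the set of 10, BTC (betacellulin) had 4 to 23 counts per library, EPGN (epigen) 0 to 7, and EGF itself 1 count in 2 libraries and 0 in the other 7, under the 3 counts taken as the floor. Among the 4 receptors of the family, EGFR held 86.1% ± 1.29 of the summed TPM in Ctrl, ERBB2 9.61% ± 1.19, ERBB3 4.19% ± 0.11 and ERBB4 0.12% ± 0.01. Scaling by longest transcript lowered the EGFR share to 80.5% and raised that of ERBB2 to 14.7%. SPRY2 held 80.3% ± 3.76 of the summed TPM of the 3 feedback genes, against 11.8% ± 3.86 for SPRY4 and 7.99% ± 1.65 for DUSP6.

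To ask whether either treatment moved these genes, 3 comparisons were made in 1 edgeR quasi-likelihood fit over 15997 genes, of which all 10 are part. The libraries of each group enter more than 1 comparison. With p-values adjusted over all genes by the Benjamini-Hochberg method, 0 of the 10 genes passed 0.05 in any comparison, and neither did any other gene: 0% of the genes tested were called in each. At an unadjusted p under 0.05 the fit called 444 genes (2.78%) for Laminin511-E8 against Ctrl, 291 (1.82%) for Acetazolamide against Ctrl and 344 (2.15%) for Laminin511-E8 against Acetazolamide. Among the 10 genes, only HBEGF in the last comparison was under 0.05 unadjusted in this fit. Which gene was under 0.05 unadjusted depended on the method. With DESeq2, HBEGF had an unadjusted p of 0.057 and TGFA 0.042 in that comparison, and SPRY4 had 0.046 for Laminin511-E8 against Ctrl. DESeq2 called 20, 4 and 18 genes in the same order, none of them among the 10. The intervals below therefore give the sizes of change that the 9 libraries allow.

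**Figure D2:**
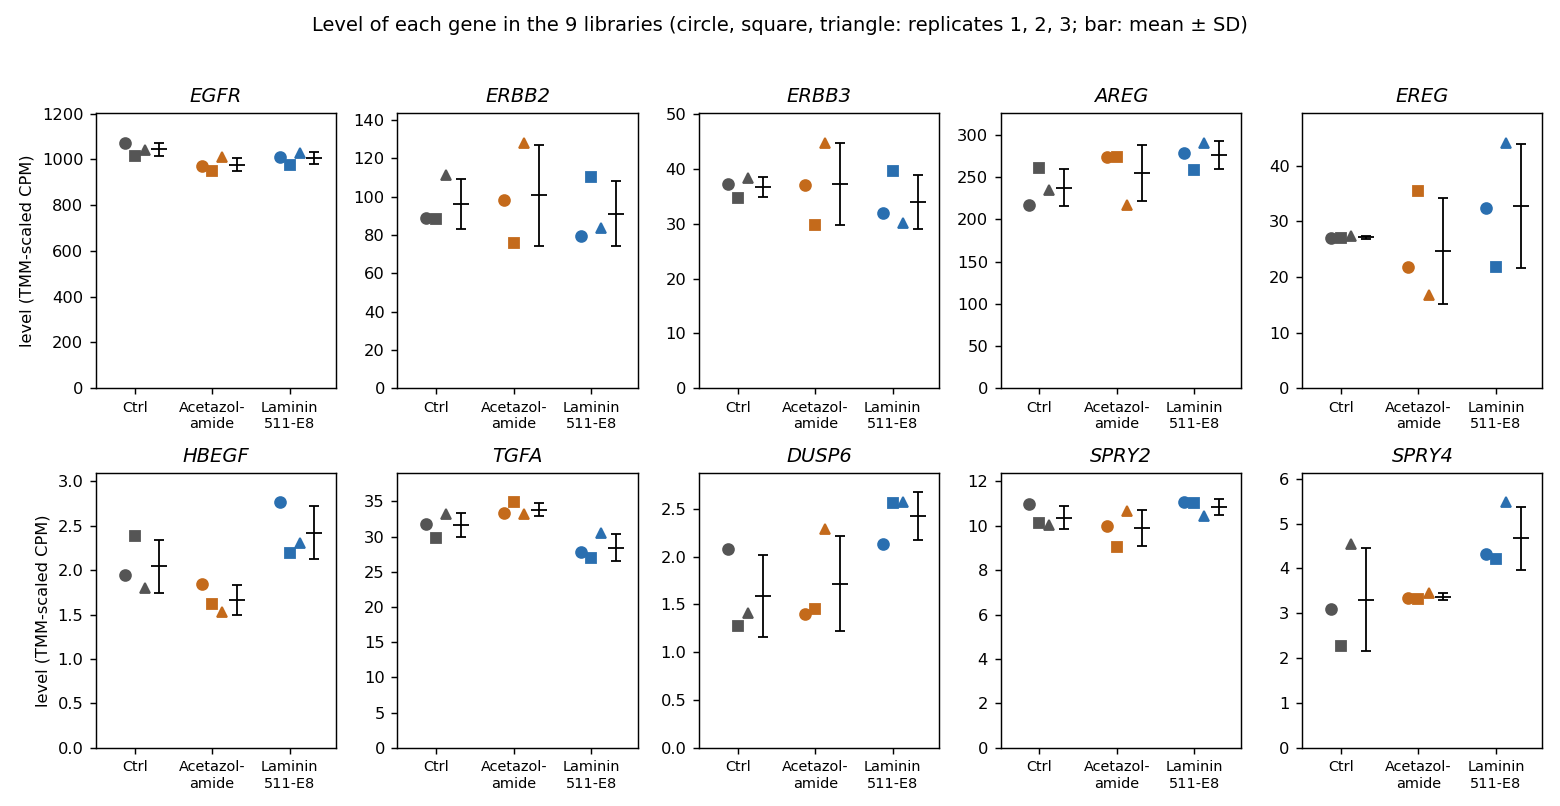
Level of the 10 genes in each of the 9 libraries, in TMM-scaled CPM on linear axes from 0 that differ between panels, with replicates 1, 2 and 3 as circle, square and triangle and the mean ± SD of each group beside them. EGFR, TGFA and SPRY2 vary little, and EREG, ERBB2 and ERBB3 vary more within Acetazolamide and Laminin511-E8 than within Ctrl. The highest DUSP6 and SPRY4 values are in Laminin511-E8.

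EGFR was the steadiest of the 3 receptors. Its level, as CPM scaled by edgeR's TMM factors, was 1073, 1017 and 1042 in Ctrl, 970, 951 and 1009 in Acetazolamide, and 1012, 975 and 1029 in Laminin511-E8. All 3 Acetazolamide libraries were below all 3 Ctrl libraries, with nearest values of 1009 and 1017, and those of Laminin511-E8 overlapped both. In TMM-scaled CPM, EGFR was the 1 gene of the 10 whose groups did not overlap for Acetazolamide against Ctrl, against 5.31% of all genes tested. This separation depended on the scaling. In CPM without TMM factors, Ctrl replicate 2 was at 949, below the Acetazolamide libraries at 994, 955 and 1043. The log2 fold change was -0.10 for Acetazolamide (95% interval -0.28 to 0.08) and -0.05 for Laminin511-E8 (-0.23 to 0.13), so a fall of EGFR below 0.83 times its Ctrl level lies outside both intervals. The gene lies at chr7:55019021-55211628, and the antisense gene EGFR-AS1 within it held 0.0904% of its count.

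ERBB2 and ERBB3 went up and down together from library to library, and their groups overlapped. ERBB2, at chr17:39687914-39730426, was at 88.7, 88.4 and 111 CPM in Ctrl, 98.2, 75.7 and 128 in Acetazolamide, and 79.4, 110 and 83.6 in Laminin511-E8. The highest and the lowest values were both in Acetazolamide, in replicates 3 and 2, and the groups overlapped in every comparison. The log2 fold change was -0.08 for Laminin511-E8 (95% interval -0.53 to 0.38) and 0.07 for Acetazolamide (-0.39 to 0.52). ERBB3, at chr12:56076799-56103505, was at 37.2, 34.7 and 38.3 CPM in Ctrl, 37.1, 29.9 and 44.8 in Acetazolamide, and 32.0, 39.7 and 30.2 in Laminin511-E8, with the same 2 libraries at its extremes. Its log2 fold changes were -0.11 (-0.49 to 0.26) and 0.02 (-0.35 to 0.39). MIEN1, on the opposite strand, overlaps the 3′ end of ERBB2 and held a count equal to 28.4% of that of ERBB2. Whether the counting used strand is not given in the sources used here. Reads from the shared stretch could have been left out or assigned to either gene.

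AREG had the lowest unadjusted p of the 4 ligands for Laminin511-E8 against Ctrl (0.11). Its level was 217, 261 and 234 CPM in Ctrl, 274, 274 and 217 in Acetazolamide, and 278, 258 and 291 in Laminin511-E8. One Laminin511-E8 library lay below the highest Ctrl library, and Acetazolamide replicate 3 was as low as the lowest Ctrl library. The log2 fold change was 0.22 for Laminin511-E8 (SE 0.12, 95% interval -0.06 to 0.49) and 0.10 for Acetazolamide (-0.17 to 0.38). The ratio of AREG to EGFR within a library, per length, does not depend on scaling between libraries. It was 1.54, 1.95 and 1.71 in Ctrl, 2.14, 2.19 and 1.63 in Acetazolamide, and 2.09, 2.01 and 2.15 in Laminin511-E8. All 3 Laminin511-E8 ratios were above the Ctrl ratios, a measure chosen after the values were seen and given with no test.

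EREG, the neighbour of AREG, had the widest spread of the 10 genes. It was at 27.0, 27.0 and 27.4 CPM in Ctrl, 21.8, 35.4 and 16.8 in Acetazolamide, and 32.4, 21.7 and 44.2 in Laminin511-E8. The Ctrl libraries were nearly alike, while the treated libraries lay on both sides of them, 2.62-fold apart at the extremes. The log2 fold change of 0.27 for Laminin511-E8 (SE 0.29) had a 95% interval from -0.38 to 0.93, and that of -0.14 for Acetazolamide ran from -0.79 to 0.52. Between its lowest and highest library the EREG level changed far more than the 1.34-fold of AREG.

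TGFA and HBEGF were the 2 ligands whose treated groups did not overlap, and neither passed the adjusted test. TGFA, at chr2:70447280-70554193, was at 31.9, 29.9 and 33.2 CPM in Ctrl, 33.3, 34.9 and 33.2 in Acetazolamide, and 27.8, 27.0 and 30.6 in Laminin511-E8. The Laminin511-E8 libraries were all below the Acetazolamide libraries, and 1 of them was above the lowest Ctrl library. The log2 fold change of Laminin511-E8 against Acetazolamide was -0.25 (SE 0.11, 95% interval -0.50 to 0.00), with an unadjusted p of 0.051. HBEGF, at chr5:140332843-140346631, was near the low end of what was counted, with 23 to 88 counts per library. It was at 1.94, 2.38 and 1.80 CPM in Ctrl, 1.85, 1.62 and 1.52 in Acetazolamide, and 2.77, 2.198 and 2.31 in Laminin511-E8. All Laminin511-E8 libraries exceeded all Acetazolamide libraries, and Ctrl overlapped both. The log2 fold change between the treated groups was 0.52 (SE 0.20, 95% interval 0.08 to 0.97), with an unadjusted p of 0.024 and an adjusted p of 1.00. Against Ctrl the HBEGF estimate was 0.24 for Laminin511-E8 (-0.21 to 0.68) and -0.29 for Acetazolamide (-0.74 to 0.17). HBEGF, TGFA and SPRY4 were the 3 genes of the 10 whose groups did not overlap in this comparison, against 6.13% of all genes tested.

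The feedback genes DUSP6 and SPRY4 had the 2 highest estimates of the 10 genes for Laminin511-E8 against Ctrl, and neither passed the test. DUSP6, at chr12:89347232-89353271, was at 2.07, 1.28 and 1.41 CPM in Ctrl, 1.40, 1.46 and 2.29 in Acetazolamide, and 2.13, 2.57 and 2.57 in Laminin511-E8, from 18 to 98 counts per library. The Laminin511-E8 libraries were above all Ctrl libraries, narrowly over Ctrl replicate 1, and 1 Acetazolamide library was among them. On the TPM scale the groups overlapped, with 1.441 in Laminin511-E8 replicate 1 and 1.447 in Ctrl replicate 1. In TMM-scaled CPM, DUSP6 was the 1 gene of the 10 whose groups did not overlap for Laminin511-E8 against Ctrl. The share was 8.65% of all genes tested (4.69% in the upward direction). Its log2 fold change was 0.58 (SE 0.27, 95% interval -0.02 to 1.17) with an unadjusted p of 0.055 and an adjusted p of 1.00. SPRY4, at chr5:142310427-142326455, was at 3.10, 2.27 and 4.55 CPM in Ctrl, 3.33, 3.32 and 3.46 in Acetazolamide, and 4.32, 4.21 and 5.48 in Laminin511-E8. Ctrl replicate 3 was within the Laminin511-E8 range, while the Acetazolamide libraries all lay below it. The SPRY4 estimate was 0.53 (SE 0.24, 95% interval -0.01 to 1.06), with an unadjusted p of 0.053.

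SPRY2, the most abundant of the feedback genes, did not share these estimates. At chr13:80335976-80340951, it was at 10.97, 10.11 and 10.04 CPM in Ctrl, 9.99, 9.06 and 10.67 in Acetazolamide, and 11.06, 11.04 and 10.46 in Laminin511-E8. The groups overlapped in every comparison, and the log2 fold change for Laminin511-E8 was 0.06 (95% interval -0.23 to 0.35). Acetazolamide left the 3 feedback genes at -0.07 (SPRY2), 0.05 (DUSP6) and 0.05 (SPRY4) on the log2 scale, with intervals that reached 0.22, 0.66 and 0.59. A rise of DUSP6 or SPRY4 by 1.5-fold under acetazolamide is therefore inside what the libraries allow.

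**Figure D3:**
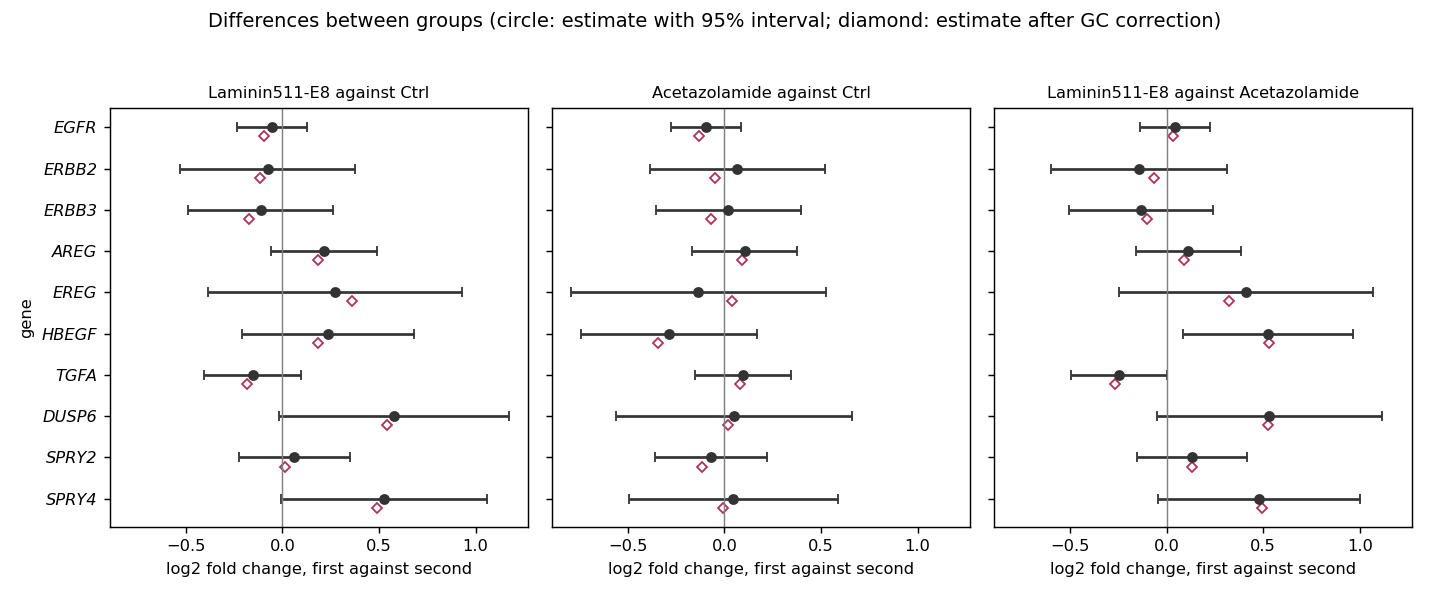
Log2 fold change of the 10 genes in the 3 comparisons with 95% intervals (circles) and the estimate after GC correction (diamonds). Every interval includes 0 except that of HBEGF for Laminin511-E8 against Acetazolamide (0.08 to 0.97).

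How far counting alone limited each gene can be read from its depth. Over the 9 libraries EGFR had a coefficient of variation of 3.78%, against 0.68% from counting, ERBB2 18.1% against 2.23% and EREG 29.2% against 4.30%. For HBEGF it was 19.6% against 15.5%, and for SPRY2 6.30% against 6.76%, so the spread of these 2 genes was near what counting gives. DUSP6 (27.5% against 16.5%) and SPRY4 (25.1% against 11.6%) lay between. For ERBB2, ERBB3 (13.4% against 3.63%) and EREG the spread was well above counting error.

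The spread of EREG, ERBB2 and ERBB3 moved with a difference between libraries in genes of high and low GC content. The transcript of EREG has 36.1% GC, at percentile 3.52 of the tested genes, while ERBB2 has 57.5% and ERBB3 52.0%. In Acetazolamide replicate 3 the 20% of genes with the highest GC content (at least 57.1%) were shifted above the 20% with the lowest (at most 40.9%) by 0.88 on the log2 scale, and in Acetazolamide replicate 2 they were shifted below them by -0.64. The same shift was 0.60 in Laminin511-E8 replicate 2, -0.38 in its replicate 3 and -0.30 in its replicate 1, and -0.29, -0.20 and 0.14 in Ctrl. EREG was -0.69 from its mean in Acetazolamide replicate 3 and 0.38 above it in replicate 2, where ERBB2 was at 0.44 and -0.32. With a smooth trend on GC content removed from each library, the SD within groups on the log2 scale went from 0.43 to 0.14 for EREG, from 0.29 to 0.09 for ERBB2 and from 0.21 to 0.11 for ERBB3. For AREG (45.3% GC) it went only from 0.15 to 0.13, for EGFR (47.5%) from 0.04 to 0.04, for TGFA from 0.07 to 0.08, and for SPRY4 from 0.31 to 0.33. The 3 Ctrl libraries became less alike for EREG, whose deviations from its mean went from -0.010, -0.0080 and 0.015 to -0.22, -0.13 and -0.018. Where the trend came from was not tested.

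**Figure D4:**
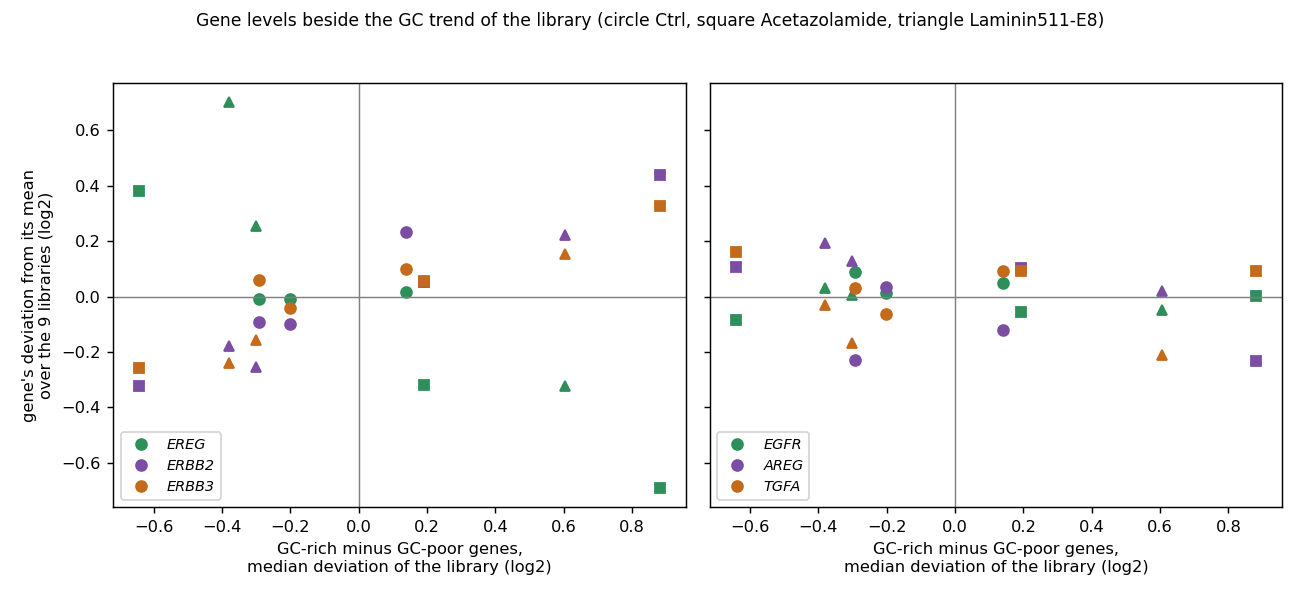
Deviation of 6 genes from their own mean over the 9 libraries (log2, y axis) beside the GC trend of the library (median deviation of GC-rich minus GC-poor genes, log2, x axis), with 1 point per gene and library. EREG falls from left to right and ERBB2 and ERBB3 rise, while EGFR, AREG and TGFA span narrower ranges of deviation.

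After this correction the EREG estimate for Laminin511-E8 against Ctrl was 0.36 with an SE of 0.11, against 0.29 without it. Its adjusted p over all genes was 0.31. That was the lowest of any of the 10 genes in any comparison and setting, not counting GC-corrected fits with 1 library left out. The fit called 45 of 15737 genes (0.286%). That count fell to 0 without Laminin511-E8 replicate 1, to 1 without Ctrl replicate 1 and to 6 without Laminin511-E8 replicate 3, and 0 of the 10 genes passed in any of these fits. The TGFA estimate for Laminin511-E8 against Acetazolamide was -0.26 (SE 0.08, adjusted p = 0.46), where 27 genes (0.172%) were called, and that of EREG was 0.32 (SE 0.10, adjusted p = 0.59). For Acetazolamide against Ctrl the fit called 0 genes (0%), and EREG went from -0.14 to 0.04. After the correction AREG was above Ctrl in Laminin511-E8 by 0.18 (SE 0.09) and its neighbour EREG by 0.36, and neither passed the test. Unadjusted, the GC-corrected fit had p under 0.05 for EREG (0.0051) and TGFA (0.038) in Laminin511-E8 against Ctrl. For Acetazolamide against Ctrl this held for EGFR (0.043). For Laminin511-E8 against Acetazolamide it held for TGFA (0.0054), EREG (0.0097), HBEGF (0.026) and SPRY4 (0.043).

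Of the 6 lists of other pathway genes, the feedback and output genes of ERK had the highest median for Laminin511-E8 against Ctrl. The lists were chosen with earlier results of these data known, so their medians and shares are descriptions and not tests. Of 19 other feedback and output genes of ERK, 16 were tested, and 14 of them had a log2 fold change above 0 for Laminin511-E8 against Ctrl, with a median of 0.25 against -0.00 over all genes tested. None passed the adjusted threshold. EGR1, an immediate early transcription factor, was at 48.2, 51.9 and 47.0 CPM in Ctrl and 62.5, 62.6 and 65.9 in Laminin511-E8, a log2 fold change of 0.38 (SE 0.11, unadjusted p = 0.0067). DUSP1, a phosphatase of p38, JNK and ERK, was at 133, 130 and 141 CPM in Ctrl and 153, 173 and 170 in Laminin511-E8, a change of 0.29 (SE 0.10, unadjusted p = 0.014). FOSL1, an AP-1 subunit (0.57, SE 0.24), and DUSP5, a nuclear ERK phosphatase (0.32, SE 0.14), also had an unadjusted p under 0.05, and were named after their values were seen. The groups did not overlap for 7 of the 16 (DUSP1, DUSP4, DUSP5, ETV4, EGR1, FOSL1 and CCND1), all higher in Laminin511-E8, against 4.69% of all genes tested in that direction. Together with DUSP6 and SPRY4, these are transcripts of several functions, phosphatases among them, and no protein or phosphorylation was measured.

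For Acetazolamide against Ctrl the median of the same list was 0.07 against 0.01 over all genes tested, with 10 of 16 above 0. The groups did not overlap for 6 of the 16, with DUSP1, DUSP4, EGR1 and FOS above Ctrl and DUSP7 and SPRED2 below it, against 5.31% of all genes tested in either direction. For Laminin511-E8 against Acetazolamide it was 3 of the 16, with DUSP5 and ETV5 higher and DUSP1 lower in Laminin511-E8, against 6.13%. DUSP1 was at 196, 179 and 198 CPM, above all Ctrl libraries, a log2 fold change of 0.50 against Ctrl (SE 0.10, unadjusted p = 0.00051, adjusted p = 1.00). EGR1 was at 56.4, 57.4 and 65.9 CPM, a change of 0.29 (SE 0.11). FOS (0.52) and DUSP7 (-0.34), named after their values were seen, completed the 4 genes with an unadjusted p under 0.05. In the test of Laminin511-E8 against Acetazolamide, DUSP1 differed by -0.21 (SE 0.10, unadjusted p = 0.064) and EGR1 by 0.09 (SE 0.11), so neither was shown to differ between the treatments. Since the 2 treatments share the Ctrl libraries, a low EGR1 or DUSP1 value there would raise both estimates.

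The receptors and ligands outside the 10 were scarce. Of 8 such genes 4 were tested and 0 passed, with a median of -0.24 for Laminin511-E8 and -0.12 for Acetazolamide. ERBB4, the fourth receptor of the family, had 13 to 52 counts per library, and its log2 fold change for Laminin511-E8 against Ctrl was -0.86 (SE 0.33, unadjusted p = 0.027). It was at 1.48, 1.51 and 1.72 CPM in Ctrl and 0.75, 0.78 and 1.00 in Laminin511-E8, and the Acetazolamide libraries, at 0.92 to 2.10 CPM, overlapped both groups. NRG2, a neuregulin, was at -0.48 (SE 0.24) for Laminin511-E8 against Ctrl and at -0.56 (SE 0.24, unadjusted p = 0.040) against Acetazolamide. BTC was at 0.00 (SE 0.48). NRG3 was at 0 in all libraries, and NRG4 had at most 5 counts.

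The proteases that free the ligands and their regulators were all detected. All 8 genes of ligand shedding were tested, 0 passed, and their medians were -0.05 for Laminin511-E8 and -0.11 for Acetazolamide. ADAM9, a membrane protease, reached 200.4 ± 20.2 TPM in Ctrl with a log2 fold change of 0.02 for Laminin511-E8 (SE 0.09), and CNIH1, a cargo receptor for export from the endoplasmic reticulum, 123 ± 24.4 TPM with -0.24 (SE 0.26). ADAM17, the main sheddase of AREG, had 21.7 ± 3.39 TPM. The lowest unadjusted p of the list were those of TIMP3, an inhibitor of ADAM17, at -0.28 for Acetazolamide (SE 0.19, unadjusted p = 0.17), and of ADAM12, at 0.14 for Laminin511-E8 against Acetazolamide (SE 0.11, unadjusted p = 0.24).

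The cascades between receptor and nucleus showed no call. All 16 adaptors and kinases of the RAS-ERK cascade were tested and 0 passed, with medians of -0.02 for Laminin511-E8 and -0.08 for Acetazolamide. PTPN11, the phosphatase SHP2, reached 235 ± 32.9 TPM in Ctrl and changed by 0.01 (SE 0.12) with laminin, and NRAS reached 132 ± 28.3 TPM and changed by -0.13 (SE 0.24). SOS1, an exchange factor that activates RAS, was at -0.24 for Acetazolamide against Ctrl (SE 0.19, unadjusted p = 0.23). Of 8 genes of the PI3K arm 7 were tested and 0 passed, with medians of -0.10 for Laminin511-E8 and -0.12 for Acetazolamide. In Ctrl, PIK3CB was at 38.7 ± 7.15 and AKT1 at 37.5 ± 7.65 TPM. PIK3R1, the p85 alpha subunit, was at -0.29 for Laminin511-E8 against Ctrl (SE 0.16, unadjusted p = 0.097).

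Genes that restrain the receptor itself also showed no call. Of 11 genes of receptor turnover and inhibition 10 were tested and 0 passed, with medians of 0.04 and -0.03. ERRFI1, a cytoplasmic inhibitor that binds the kinase domain of EGFR and ERBB2, was the most abundant at 339 ± 42.1 TPM in Ctrl, above EGFR, and changed by 0.11 (SE 0.09) with laminin and by 0.13 (SE 0.09, unadjusted p = 0.19) with acetazolamide. PTPN1, a phosphatase of the receptor, reached 77.6 ± 11.2 TPM and changed by 0.05 (SE 0.09) with laminin. LRIG2 was at -0.17 for Acetazolamide (SE 0.14, unadjusted p = 0.24), and LRIG1, an inhibitor that marks quiescent epithelial cells, had at most 6 counts.

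Genes whose levels followed those of EGFR, AREG and DUSP6 over the 9 libraries were searched among the 10514 genes with a mean of at least 5 CPM, as a description. The 3 most like EGFR were RAB3B (Pearson r = 0.97 over 9 libraries), ARPIN (0.89) and FAM120C (0.87). AREG was followed by UBA6-DT (0.91), ZEB1 (0.90) and NUDT5 (0.88), and DUSP6 by PSMB2 (0.94), FBN2 (0.93) and ALDH5A1 (0.93). With AREG, its neighbour EREG had r = 0.63, the rank 463 among the genes compared. Of the receptors, EGFR had -0.52, ERBB2 -0.64 and ERBB3 -0.78 with AREG. With DUSP6, SPRY2 had r = 0.72, at rank 143. These values share the depth and the GC trend of the libraries.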

How the data were processed

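Poly(A) RNA of 9 H69 libraries was sequenced after KAPA mRNA HyperPrep preparation. Per the study's methods, the 3 of 4 replicates per group with the best RNA integrity were sequenced, so the spread is between cultures of 1 line. The deposited values are raw counts per gene that the authors made on GRCh38. The submitters' processing notes name HTSeq 0.11.0, HISAT2 2.2.1, Trimmomatic 0.39 and FastQC 0.11.9. Not given in the sources used here are the annotation release, whether strand was used, and how reads that map to several places were counted. Of 61541 gene IDs, 61369 were named from a gene name table and 61528 with GENCODE 29, which gave lengths and GC content. There were 0 rows without a gene.

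Counts were tested with edgeR 4.0.16 (R 4.3.3): TMM scaling, filterByExpr (15997 genes kept, all 10 genes among them), and robust quasi-likelihood fits over all 9 libraries with the group as the only term. Intervals are 95% intervals from the moderated t distribution of the fit. Adjusted p-values follow Benjamini and Hochberg with a threshold of 0.05. In the GC correction, a lowess trend (span 0.3) of each library's deviation on GC content became an offset. DESeq2 1.42.0, RLE scaling, no filter, a replicate block, 6 libraries per comparison and leaving out each library were the alternatives. The edgeR fits, with and without the GC correction, were tested on simulated counts. Likeness used log2 of TMM-scaled CPM with a pseudocount of 1. The intervals include the spread between cultures, while floors of 3 counts (0.0759 to 0.239 CPM) cover counting error only. Replicates differed beyond counting noise in each pair.

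The 10 genes and all lists were chosen with earlier results of these data known. From each list, the genes named were those that passed, or else the 2 with the lowest unadjusted p and the 2 most abundant in Ctrl by TPM. A few genes that these rules name are not reported here. For likeness, the 3 genes with the highest r were named. The marker lists of 5 cell types include endothelial genes, which summed to 0.400 to 1.58 CPM.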

Additional observations from a re-analysis of the deposited data

How the results depend on the processing

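None of the 10 genes passed the adjusted threshold in any comparison under RLE scaling, no filter, DESeq2, the 6 libraries compared, the replicate block, GC correction with or without the block, or with any 1 library left out. Over all genes, edgeR called 0 genes in every comparison under RLE scaling, the 6 libraries compared, the replicate block, GC correction with the block, and with any 1 library left out. Without a filter it called 5 genes for Laminin511-E8 against Ctrl, 3 for Acetazolamide against Ctrl and 2 for Laminin511-E8 against Acetazolamide, and DESeq2 called 20, 4 and 18. GC correction called 45 for Laminin511-E8 against Ctrl and 27 for Laminin511-E8 against Acetazolamide. With 1 library left out of the GC-corrected fit, an alternative chosen after seeing the data, the first count ranged from 0 to 57 (0 without Laminin511-E8 replicate 1, 1 without Ctrl replicate 1, 6 without Laminin511-E8 replicate 3, 23 without Laminin511-E8 replicate 2, 24 without Ctrl replicate 3 and 26 without Acetazolamide replicate 1). The count for Laminin511-E8 against Acetazolamide ranged from 0 to 29 (0 without Acetazolamide replicate 1, Laminin511-E8 replicate 1 or Laminin511-E8 replicate 3, 9 without Laminin511-E8 replicate 2 and 13 without Acetazolamide replicate 3), and that for Acetazolamide against Ctrl from 0 to 1 (without Acetazolamide replicate 2). The cause was not tested.

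For the signs, the GC-corrected fits with 1 library left out were not counted among the alternatives. Of the 30 log2 fold changes of the 10 genes, 21 kept their sign under every alternative counted. Those of DUSP6 and SPRY4 for Laminin511-E8 and of HBEGF and TGFA in all 3 comparisons were among the 21. The other 9 lay between -0.14 and 0.11 in the fit with group as the only term. For Acetazolamide against Ctrl, GC correction gave -0.050 for ERBB2, -0.072 for ERBB3, 0.038 for EREG and -0.0063 for SPRY4, GC correction with the replicate block gave -0.050 for ERBB2, -0.073 for ERBB3 and 0.041 for EREG, and no filter gave -0.021 for ERBB3. With 1 library left out, this comparison ranged from -0.13 to 0.24 for ERBB2, -0.12 to 0.16 for ERBB3, -0.48 to 0.079 for EREG, -0.18 to 0.29 for DUSP6 and -0.15 to 0.30 for SPRY4. Laminin511-E8 against Ctrl ranged from -0.24 to 0.032 for ERBB2. Laminin511-E8 against Acetazolamide ranged from -0.31 to 0.056 for ERBB2, -0.27 to 0.0076 for ERBB3 and -0.0018 to 0.17 for AREG. The DUSP6 estimate for Laminin511-E8 against Ctrl ranged from 0.45 to 0.83 and that of SPRY4 from 0.33 to 0.79. Same-numbered libraries of different groups correlated from -0.65 to 0.24 in their deviations, and not every library correlated best with its own number. The labels only number the libraries, and these deviations include the GC trend, so this check cannot decide whether the numbers pair the samples. The replicate block left the count of calls at 0 without GC correction, and with it the counts of 45 and 27 became 0. Of the 10 TPM levels in Ctrl, 3 (ERBB2, ERBB3 and HBEGF) moved by more than 1 SD when scaled by the longest transcript.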
